A study of Mus musculus with 4 samples.

Results

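The neurotrophins brain-derived neurotrophic factor (*Bdnf*) and neurotrophin 3 (*Ntf3*), glial cell line-derived neurotrophic factor (*Gdnf*) and the receptors of these ligands (*Ntrk2*, *Ntrk3*, *Ngfr*, *Gfra1* and *Ret*) were followed in cochlear RNA of mice with and without outer hair cell (OHC) ablation. All probes of the array whose gene name is 1 of these 8 symbols were taken, which gave 13 of 39429 probes and 8 of 30028 named genes. The probes were taken by gene name and not by their values, but the 8 genes were chosen with earlier results of these data known. *Ntrk2* has 3 probes and *Ntrk3* has 4, and the other 6 genes have a single probe each.

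OHC-TRECK mice, named *Prestin*-*hDTR* by the authors, carry a human diphtheria toxin receptor under the promoter of *Slc26a5* (prestin), the motor protein gene of OHCs, and come from 1 transgenic line on the B6J background. Diphtheria toxin (DT) enters cells that hold this receptor and stops their protein synthesis. The 4 groups were untreated wild type, labelled WT DT(-), wild type given DT, labelled WT DT(+), untreated transgenic mice, labelled OHC-TRECK DT(-), and transgenic mice given DT, labelled OHC-TRECK DT(+). Mice were 5 weeks old, both DT groups had received 50 μg/kg at 7 days before dissection, and the design text gives n = 8 (4 females and 4 males). This was read as 8 cochleae per group, and the number of mice behind each array is not certain. The sexes were pooled and each group was measured on 1 single-channel array. There is therefore no replicate, no test between groups and no p-value for any difference, and 1 array per group sets the precision.

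Neurotrophins are secreted proteins that keep neurons alive and shape their synapses through Trk receptor tyrosine kinases. In this system BDNF binds TrkB, encoded by *Ntrk2*, and NT-3 binds TrkC, encoded by *Ntrk3*, while the low-affinity receptor p75NTR, encoded by *Ngfr*, binds all neurotrophins and their uncleaved forms. GDNF binds the membrane-anchored co-receptor GFRα1, and the complex activates the RET kinase. In the cochlea, BDNF and NT-3 are the factors on which the spiral ganglion neurons depend, and sensory and supporting cells are known sources of them. *Ntrk2* and *Ntrk3* each give a full-length receptor and a truncated one without the kinase, and truncated TrkB is the form known from glia and other non-neuronal cells.

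The probes of *Ntrk2* and *Ntrk3* separate these receptor forms, apart from the *Ntrk2* probe common to both. Sequences are shown for 4 of these probes that were read as coding sequence. They are the array's own 60-base probes, written 5′ to 3′ on the strand of the transcript, with positions from the array files in the mm9 build. The *Ntrk2* probe common to both forms lies at chr13:58979563-58979622 on the plus strand, in the region coding for the stretch that crosses and follows the membrane. The *Ntrk3* probes lie on the minus strand at chr7:85392044-85392103 in the kinase, at chr7:85337455-85337514 near the end of the full-length coding sequence, and at chr7:85447515-85447574 at the end of the truncated coding sequence. Capitals mark the codons of the DFG motif of protein kinases in the kinase probe and the stop codon in the truncated probe, and no capitals were set in the others.
*Ntrk2* shared: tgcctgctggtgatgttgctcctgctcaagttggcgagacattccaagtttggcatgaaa
*Ntrk3* full-length, kinase: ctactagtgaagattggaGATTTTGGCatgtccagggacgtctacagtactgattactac
*Ntrk3* full-length, 3′ end: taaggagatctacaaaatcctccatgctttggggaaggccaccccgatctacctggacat
*Ntrk3* truncated, end of coding sequence: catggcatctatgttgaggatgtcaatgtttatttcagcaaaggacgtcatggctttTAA

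The other probes are given by position. On the plus strand these were *Bdnf* (chr2:109566961-109567020), *Gdnf* (chr15:7787474-7787533), *Ntrk2* full-length (chr13:59230936-59230995) and *Ntrk2* truncated (chr13:59038046-59038105). On the minus strand these were *Ntf3* (chr6:126051431-126051490), the second truncated probe of *Ntrk3*, at the 3′ end of its transcript (chr7:85445908-85445967), *Ngfr* (chr11:95430211-95430270), *Gfra1* (chr19:58311604-58311663) and *Ret* (chr6:118101791-118101850). The forms were assigned from the transcript variants that the array files name, and exon or untranslated parts were not assigned here for these probes.

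Levels are log2 of the background-subtracted intensity divided by the 75th percentile of the array, so that 0 is the level of a probe at that percentile. Levels of probes with different sequence were not compared with each other as amounts of transcript. Summed marker levels and quotients of probe pairs join such probes and were compared only between arrays. A sum is ruled by its brightest probes, so its order over the arrays need not be that of its single markers. Between 62.3% and 70.6% of all probes were well above background on an array, and all 13 probes were on each of the 4 arrays. Spots of a probe repeated on an array had a median SD of 0.06 to 0.07 on the log2 scale. A difference is called larger than the error of the spots where it exceeds 2 SDs of a difference between single spots of like brightness, which was 0.16 to 0.24 for 12 of the probes and 0.40 for the dim *Ret* probe. This error is that of the measurement and does not hold the spread between mice.

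The arrays showed the ablation that the labels state. Of 7 OHC markers, 4 were more than 2-fold lower in OHC-TRECK DT(+) than in each other group, and *Strc* (stereocilin) was 8.57-fold lower than in OHC-TRECK DT(-). The *Slc26a5* probe itself was dim. In OHC-TRECK DT(+) it was not above background by this flag, and it was at least 1.31-fold lower than in OHC-TRECK DT(-). Of 4 inner hair cell markers, none (0) reached 2-fold in any comparison, and all 4 were lower in OHC-TRECK DT(+) than in the other 3 groups, with *Slc17a8* (vesicular glutamate transporter 3) 1.28-fold to 1.46-fold lower. All 8 macrophage markers were higher in OHC-TRECK DT(+) than elsewhere, and their summed level was 23.6 against 12.7 to 14.7 in the others, in units of the 75th percentile. The neutrophil markers varied between all arrays, with summed levels from 13.4 in OHC-TRECK DT(-) to 58.0 in WT DT(+). In tissue RNA of this kind, fewer cells of a type and less RNA per cell cannot be told apart. The authors counted cells in stained cochleae and report that almost all OHCs were lost. They found no significant change in the numbers of inner hair cells and of the supporting cells counted. Their quantitative RT-PCR showed no significant difference in *Slc17a8*.

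None of the 13 probes reached 2-fold in any of the 5 comparisons, a count of 0 in each. The share of all probes called at 2-fold was itself low. In OHC-TRECK DT(+) against OHC-TRECK DT(-) it was 2.49% higher and 1.35% lower, against WT DT(+) it was 1.41% and 1.83%, and against WT DT(-) it was 1.96% and 1.95%. In WT DT(+) against WT DT(-) these shares were 1.46% and 1.09%, and in OHC-TRECK DT(-) against WT DT(-) they were 1.01% and 2.32%. With 13 probes, shares of this size come to less than 1 probe, so the count of 0 does not set the members apart from the array.

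At 1.5-fold, *Ret* was the single probe called, and it was higher in OHC-TRECK DT(+) than in OHC-TRECK DT(-) and in WT DT(+). The background for this threshold in either direction was 8.46% and 8.35% of the probes in these comparisons, so 1 of 13 lay near the background. Under another background correction (normexp) the log2 ratio against WT DT(+) was 0.53, which is under 1.5-fold (0.58), and that call was lost. No member was called at 1.5-fold in OHC-TRECK DT(+) against WT DT(-), in WT DT(+) against WT DT(-) or in OHC-TRECK DT(-) against WT DT(-), where the background was 10.4%, 5.81% and 6.74%.

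The median log2 ratio of the 13 probes was 0.04 in OHC-TRECK DT(+) against OHC-TRECK DT(-), 0.17 against WT DT(+) and -0.07 against WT DT(-). The medians of all probes measured on both arrays were -0.00, 0.01 and -0.02. The middle 50% of all probes lay between -0.13 and 0.14 in the comparison with WT DT(+), and the members' median was above it there. That range is of single probes and is no reference for a median of 13 probes, several of which belong to the same gene. The median size of the ratio, whatever its direction, was 0.15, 0.18 and 0.26 for the members and 0.14, 0.13 and 0.16 for all probes in the same order. For DT in wild type the members' median was -0.01 beside -0.03 for all probes, and for the transgene without DT it was -0.01 beside -0.01. OHC-TRECK DT(+) was the highest array for 5 of the 13 probes and the lowest for 4, and among the 23688 probes well above background on all arrays these shares were 32.9% and 35.2%.

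**Figure D1:**
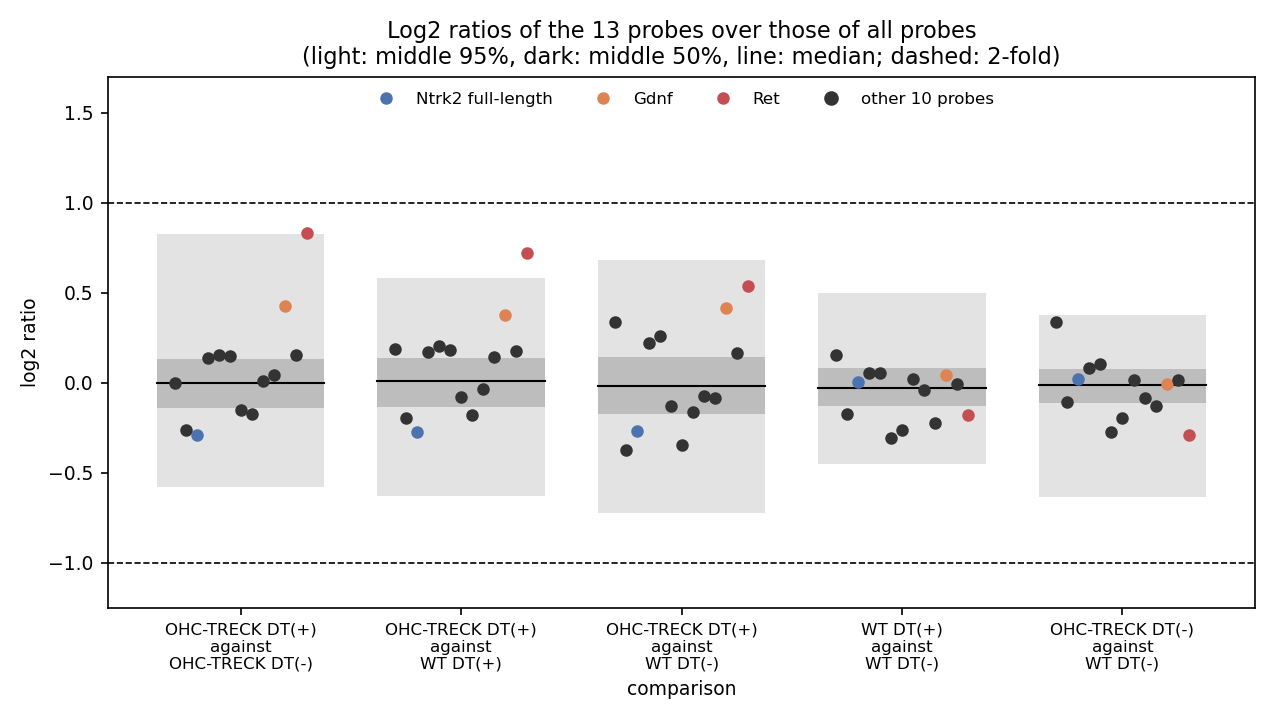
Log2 ratio (vertical axis) of the 13 probes in the 5 comparisons (horizontal axis). The light and dark boxes hold the middle 95% and 50% of all probes measured on both arrays, the line is their median and the dashed lines mark 2-fold. *Ret* reached 0.83 in the first comparison and 0.72 in the second, and all points stay inside the 2-fold lines.

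*Bdnf*, the ligand of TrkB, had a level of -2.21 in WT DT(-), -2.06 in WT DT(+), -1.88 in OHC-TRECK DT(-) and -1.88 in OHC-TRECK DT(+). Both transgenic arrays were thus the highest and nearly equal, and untreated wild type was the lowest. The difference between the untreated genotypes was 0.34 on the log2 scale, or 1.26-fold, which was larger than the error of the spots and at least matched in size by 10.02% of all probes. The step from WT DT(-) to WT DT(+), 0.15, was within that error, as was the step from there to OHC-TRECK DT(+), 0.19. Within OHC-TRECK mice the ratio after DT was -0.00, a difference that 99.1% of all probes reached or passed.

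*Ntf3*, the ligand of TrkC, had a level of -2.77 in WT DT(-), -2.94 in WT DT(+), -2.88 in OHC-TRECK DT(-) and -3.14 in OHC-TRECK DT(+). The array of ablated cochleae was the lowest, and the 3 others were within the error of the spots of each other. Against OHC-TRECK DT(-) it was 1.20-fold lower and against WT DT(-) 1.30-fold lower, both larger than that error, while the 1.15-fold difference from WT DT(+) was not. Of all probes, 25.2% and 17.9% were at least as far from 0 in the first and second of these. The summed level of the 4 inner hair cell markers, cells known to make NT-3, was also lowest on this array, at 3.38 against 4.52 to 4.79. The summed level of the 8 supporting cell markers, another known source, was highest there, at 130 against 109 to 114. The bright *Gjb2* and *Gjb6* probes, named after their values were seen, made up most of that sum. Of the 8 markers, 5 were higher in OHC-TRECK DT(+) than in OHC-TRECK DT(-), with a median log2 ratio of 0.16, and the rest were lower. The sums of the OHC and neuron markers were lowest in OHC-TRECK DT(+). The part of any of these cells in the *Ntf3* value was not tested.

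The *Ntrk2* probes for the full-length and the truncated receptor stood on opposite sides of the other groups in OHC-TRECK DT(+). The full-length probe was at -0.31 in WT DT(-), -0.30 in WT DT(+), -0.29 in OHC-TRECK DT(-) and -0.58 in OHC-TRECK DT(+). The first 3 arrays spanned 1.02-fold, and the last was 1.21-fold to 1.22-fold lower than each of them.

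This probe was printed 10 times on every array. Its spots in OHC-TRECK DT(+) ran from -0.73 to -0.47, with a median of -0.60 and an SD of 0.08. The lowest spot on any other array was at -0.43, so all 10 spots lay below all spots of the 3 other arrays. Spots of 1 array share the same RNA and are no replicates of the condition, and a shift of this size in OHC-TRECK DT(+) against OHC-TRECK DT(-) was reached by 22.2% of all probes.

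**Figure D2:**
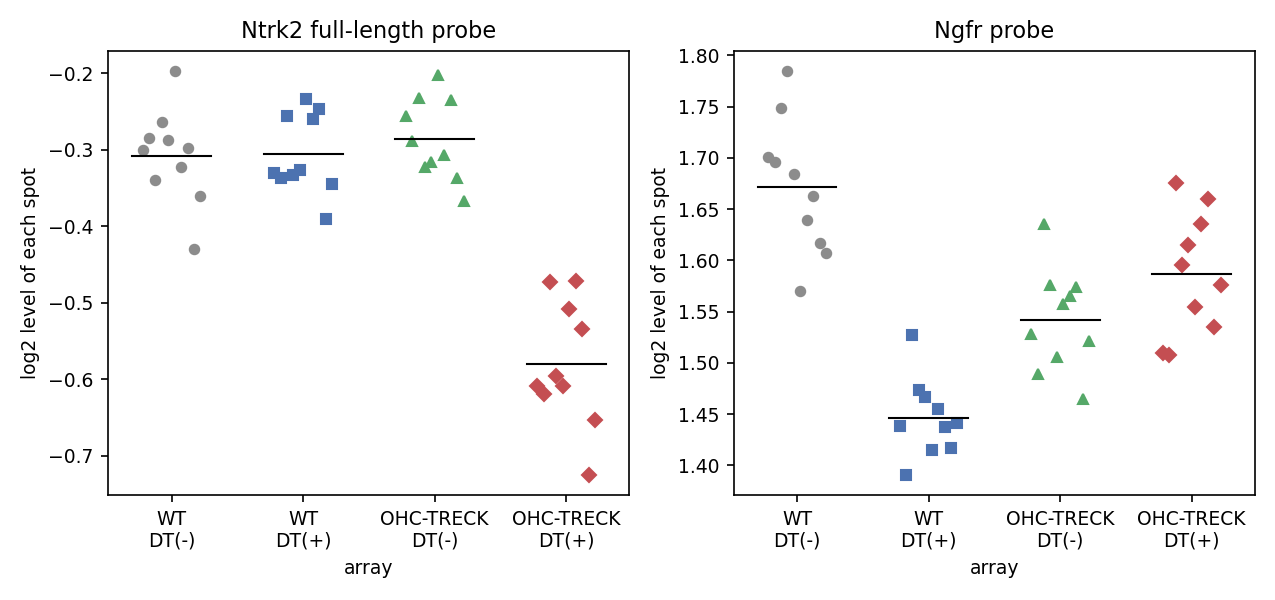
Log2 level of each of the 10 spots (vertical axis) of the *Ntrk2* full-length probe (left) and the *Ngfr* probe (right) on the 4 arrays (horizontal axis), with lines at the means. The *Ntrk2* spots of OHC-TRECK DT(+), from -0.73 to -0.47, lie below all others, and the *Ngfr* spots of WT DT(-), from 1.57 to 1.78, lie above those of WT DT(+).

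The *Ntrk2* probe for the truncated receptor was at -0.82 in WT DT(-), -0.76 in WT DT(+), -0.71 in OHC-TRECK DT(-) and -0.56 in OHC-TRECK DT(+). The probe shared by both forms, whose sequence is given above, was at 1.32, 1.38, 1.40 and 1.54 in the same order. Both had the same order over the arrays, and both were highest in OHC-TRECK DT(+), by 0.21 and 0.18 over the mean of the other 3. Each of these differences from WT DT(-) and WT DT(+) was larger than the error of the spots, and the differences from OHC-TRECK DT(-), 0.15 and 0.14, were not.

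A quotient of 2 probes on the same array does not depend on how the array was scaled. The log2 quotient of the full-length over the truncated probe was 0.51 in WT DT(-), 0.46 in WT DT(+), 0.43 in OHC-TRECK DT(-) and -0.02 in OHC-TRECK DT(+). On the last array it fell by 0.49 against the mean of the others, which spanned 0.08, and the SD expected from the spots of both probes was 0.09. Over 6717 pairs of probes of the same gene, from 4423 genes measured on all arrays, 5.58% shifted at least as far. The quotient of the full-length over the shared probe fell by 0.46, a size that 6.36% of the pairs reached, and the quotient of the shared over the truncated probe fell by 0.03. The same full-length values enter both shifts, so they are not independent of each other.

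Truncated TrkB is known from glia and full-length TrkB from neurons, so markers of both were set beside these values. Of 14 spiral ganglion neuron markers, 10 were lower in OHC-TRECK DT(+) than in OHC-TRECK DT(-), with a median log2 ratio of -0.25, and *Gap43* (a growth cone protein) was 3.01-fold higher. In WT DT(+) against WT DT(-), where the full-length *Ntrk2* ratio was 0.00, 13 of the 14 were lower, also with a median of -0.25, and the median in OHC-TRECK DT(+) against WT DT(+) was -0.09. *Tubb3* (neuronal β-tubulin) was 1.05-fold lower in OHC-TRECK DT(+) than in OHC-TRECK DT(-). Of 10 markers of Schwann and satellite glia, 6 were higher in OHC-TRECK DT(+) than in OHC-TRECK DT(-), with a median of 0.07. The summed neuron level was 165 in OHC-TRECK DT(+) against 173 to 203 on the other arrays, and the summed glia level was 257 against 218 to 293. The part of these cells in the *Ntrk2* values was not tested.

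The 4 probes of *Ntrk3*, the receptor of NT-3, did not share 1 pattern. The kinase probe of the full-length receptor was at -1.81 in WT DT(-), -1.79 in WT DT(+), -1.80 in OHC-TRECK DT(-) and -1.97 in OHC-TRECK DT(+). Here 3 arrays were within 0.02 of each other, and the last was 1.12-fold to 1.13-fold lower, which is within the error of the spots. The probe near the end of the same coding sequence was at 0.68, 0.64, 0.60 and 0.61 in the same order and spanned 1.06-fold over all arrays, also within that error.

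The probes of the truncated *Ntrk3* transcript, which encodes TrkC without its kinase, spanned 1.27-fold and 1.24-fold. Its probe at the end of the coding sequence was at 0.35 in WT DT(-), 0.08 in WT DT(+), 0.15 in OHC-TRECK DT(-) and 0.00 in OHC-TRECK DT(+). Its 3′ end probe was at -0.12, -0.43, -0.39 and -0.24 in the same order. Both were highest in untreated wild type, by 0.20 to 0.31 over WT DT(+) and OHC-TRECK DT(-), which was larger than the error of the spots.

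For OHC-TRECK DT(+) these probes of the same transcript parted. Against OHC-TRECK DT(-), the probe at the end of the coding sequence was -0.15 and the 3′ end probe was 0.15 on the log2 scale, and neither was larger than the error of the spots. Their quotient was 0.26 above the mean of the other arrays, which spanned 0.08, and 19.5% of the pairs shifted at least as far. No direction can be given for truncated *Ntrk3* after ablation.

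**Figure D3:**
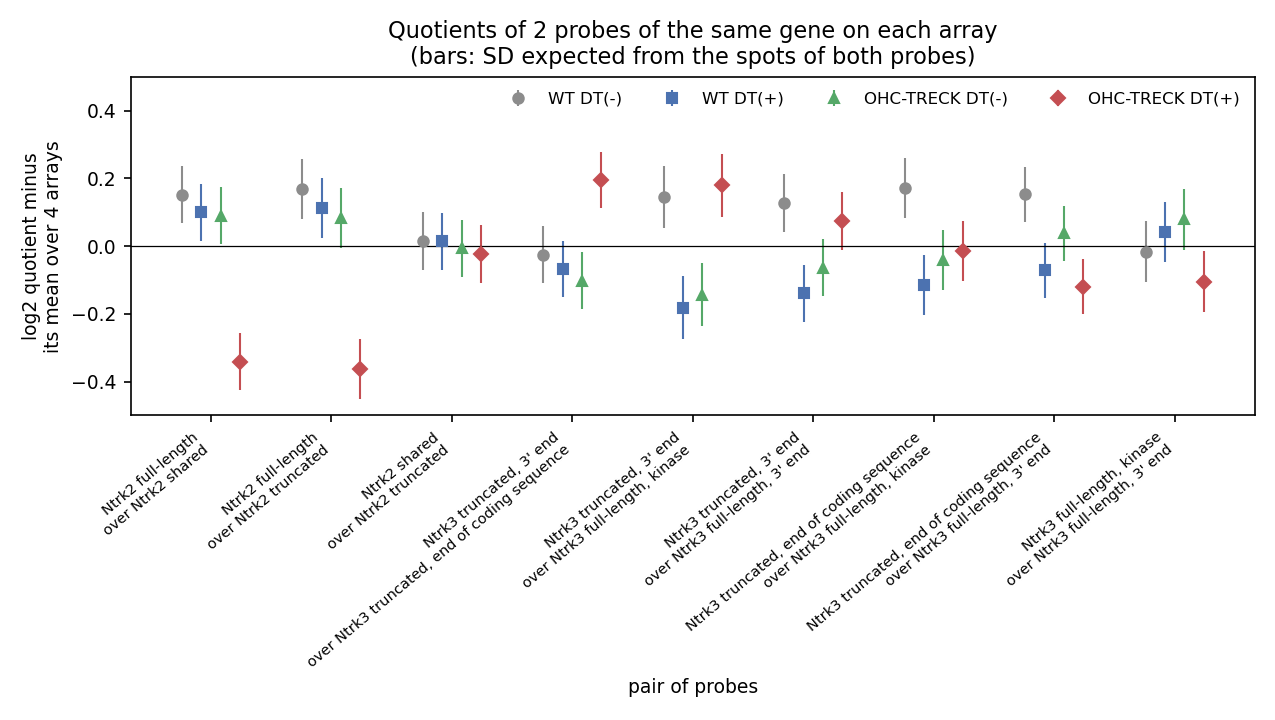
Log2 quotient of pairs of probes of the same gene on each array, minus its mean over the 4 arrays (vertical axis), for the 3 pairs of *Ntrk2* and the 6 pairs of *Ntrk3* (horizontal axis); bars are the SD expected from the spots of both probes. The quotients of *Ntrk2* full-length over shared and over truncated are lowest in OHC-TRECK DT(+), where the first fell by 0.46 and the second fell by 0.49 against the mean of the others.

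*Ngfr*, which encodes p75NTR and is known to increase in Schwann cells after nerve injury, was at 1.67 in WT DT(-), 1.45 in WT DT(+), 1.54 in OHC-TRECK DT(-) and 1.59 in OHC-TRECK DT(+). Untreated wild type was the highest array and DT-treated wild type the lowest. This probe was also printed 10 times, and its spots in WT DT(-), from 1.57 to 1.78, did not overlap those in WT DT(+), from 1.39 to 1.53. The difference of 0.23 was 1.17-fold, and 19.6% of all probes were at least as far from 0. In OHC-TRECK mice the ratio after DT was 0.04, which 81.4% of all probes reached or passed.

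The summed level of the glial markers had the order of the *Ngfr* probe over the arrays, apart from near equal sums for the OHC-TRECK arrays, at 293 in WT DT(-), 257 in OHC-TRECK DT(+), 257 in OHC-TRECK DT(-) and 218 in WT DT(+). The 3′ end probe of truncated *Ntrk3* had the same order, but the other probe of that transcript had the order of the summed neuron markers, which were 203 in WT DT(-), 187 in OHC-TRECK DT(-), 173 in WT DT(+) and 165 in OHC-TRECK DT(+). In WT DT(+) against WT DT(-), 9 of the 10 glial markers were lower, with a median of -0.41. The part of these cells in the values was not tested.

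*Gdnf*, the ligand of GFRα1 and RET, was at -1.64 in WT DT(-), -1.60 in WT DT(+), -1.65 in OHC-TRECK DT(-) and -1.22 in OHC-TRECK DT(+). The 3 groups with OHCs spanned 1.04-fold, and the ablated group stood 0.41 above their mean. It was 1.34-fold higher than OHC-TRECK DT(-), 1.30-fold higher than WT DT(+) and 1.34-fold higher than WT DT(-), and each of these was larger than the error of the spots. Of all probes, 12.2%, 13.1% and 14.7% were at least as far from 0 in these comparisons.

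*Gfra1*, the co-receptor that binds GDNF, was at -1.12 in WT DT(-), -1.13 in WT DT(+), -1.11 in OHC-TRECK DT(-) and -0.96 in OHC-TRECK DT(+). The first 3 arrays were within 1.02-fold of each other and the last was the highest, by 1.11-fold to 1.13-fold. These differences were within the error of the spots, and 39.1% to 48.1% of all probes were at least as far from 0.

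*Ret*, the kinase that GDNF and GFRα1 activate, had a dim probe, and spots of this brightness carried the largest error among the members. Its background-subtracted intensity was 169 in WT DT(-), 173 in WT DT(+), 153 in OHC-TRECK DT(-) and 280 in OHC-TRECK DT(+). The levels were -4.02, -4.20, -4.31 and -3.48 in the same order. The ablated group was the highest, and the other 3 were within the error of the spots of each other. It was 1.78-fold higher than OHC-TRECK DT(-), 1.65-fold higher than WT DT(+) and 1.45-fold higher than WT DT(-), and 3.55%, 3.51% and 9.02% of all probes were at least as far from 0. Among 2830 probes of like level, 3.18% were at least 1.5-fold above all 3 other arrays, which *Ret* was not. *Gdnf*, *Gfra1* and *Ret* were all highest in OHC-TRECK DT(+), as were 32.9% of all probes.

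**Figure D4:**
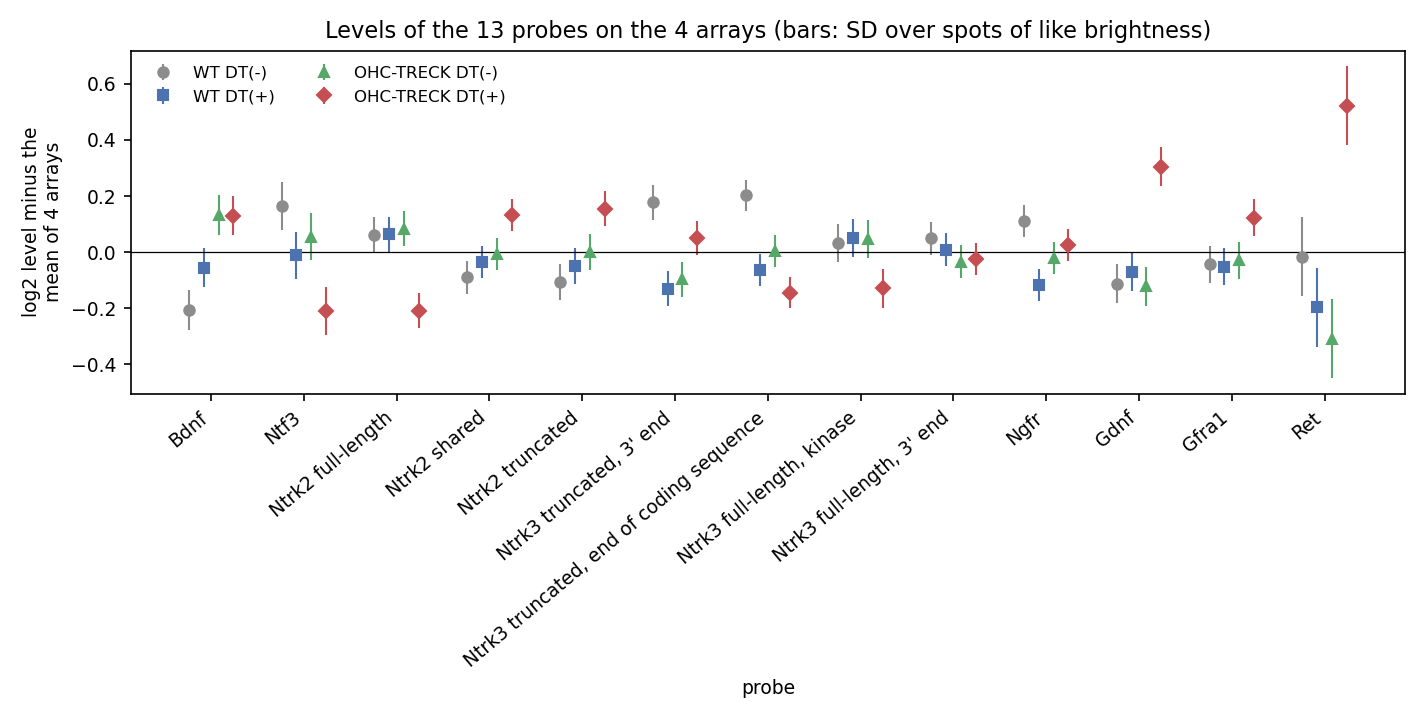
Log2 level of each probe minus its mean over the 4 arrays (vertical axis) for the 13 probes (horizontal axis); points are arrays and bars are the SD over spots of like brightness. In OHC-TRECK DT(+), *Ret*, *Gdnf*, *Gfra1* and the shared and truncated *Ntrk2* probes are above the other arrays, and *Ntf3*, full-length *Ntrk2*, the *Ntrk3* kinase probe and the truncated *Ntrk3* probe at the end of the coding sequence are below them.

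*Ret* was the member whose levels spanned at least 1.5-fold, so the genes most like it were sought. The search covered 19467 probes of named genes that were well above background on all arrays. Likeness was the root mean square difference of log2 levels, each centred on its mean over the 4 arrays. The 3 nearest were *Fcgr4* (an Fcγ receptor of myeloid cells), at 0.02, *Bst2* (an interferon-induced membrane protein), at 0.02, and *Havcr2* (an immune receptor), at 0.03. With 4 arrays many patterns coincide, and 96 of these probes, with that of *Ret* itself counted, were within 0.10 of *Ret*. The summed macrophage markers had the same order over the arrays as *Ret*, at 23.6 in OHC-TRECK DT(+), 14.7 in WT DT(-), 13.9 in WT DT(+) and 12.7 in OHC-TRECK DT(-). Most of the 8 macrophage markers did not have this order singly. Among them, *Cd68* and *Mpeg1* were higher in WT DT(+) than in WT DT(-), so the order is that of the sum only. The summed markers of fibroblasts and mesenchyme (103 to 129) and of the stria vascularis (107 to 125) had the order of *Ret* too. The part of any of these cells in the *Ret* value was not tested.

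The ratio after DT can be set side by side in both genotypes. The ratio in OHC-TRECK mice minus that in wild type was 1.01 for *Ret*, from 0.83 and -0.18, and 2.31% of the probes well above background on all arrays differed at least as far. It was 0.46 for the 3′ end probe of truncated *Ntrk3* (12.0% of the probes), 0.39 for *Gdnf* (16.1%), 0.27 for *Ngfr* (28.1%) and -0.29 for full-length *Ntrk2* (25.2%). For the other 8 probes it lay between -0.19 and 0.16. With single arrays these differences of differences were not tested.

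The remaining genes of the system were taken as lists. Of 8 other neurotrophins and receptors, 7 were measured, and 0 reached 2-fold in any comparison. Their median in OHC-TRECK DT(+) against OHC-TRECK DT(-) was 0.00, beside -0.00 for all probes. *Ntf5* (neurotrophin 4, another ligand of TrkB) was at -3.39 in WT DT(-), -3.14 in WT DT(+), -3.25 in OHC-TRECK DT(-) and -3.21 in OHC-TRECK DT(+), so that the ablated group lay between the others. The brightest of the 3 probes of *Sort1* (sortilin, which binds the uncleaved neurotrophins with p75NTR) stayed between 1.85 and 1.88.

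Of 8 other GDNF family ligands and receptors, 6 were measured, and 0 reached 2-fold in any comparison. Their median was 0.15 in OHC-TRECK DT(+) against OHC-TRECK DT(-), 0.09 against WT DT(+) and -0.10 against WT DT(-), where all probes had -0.00, 0.01 and -0.02. *Artn* (artemin, a ligand of the GDNF family), named here after its values were seen, was the one gene of this list past 1.5-fold. It was at -2.19 in WT DT(-), -2.02 in WT DT(+), -2.05 in OHC-TRECK DT(-) and -2.76 in OHC-TRECK DT(+). The ablated group was thus the lowest, opposite to *Gdnf*. It was 1.64-fold below OHC-TRECK DT(-) and 1.68-fold below WT DT(+), and 1.48-fold below WT DT(-), which is under 1.5-fold. The background at 1.5-fold in either direction was 8.46%, 8.35% and 10.4% of the probes in these comparisons, and *Artn* was 1 of 6 genes measured.

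Of 24 genes for the cleavage of neurotrophin precursors and for adaptors of the receptors, 20 were measured in OHC-TRECK DT(+) against OHC-TRECK DT(-), and 0 reached 2-fold in any comparison. Their median there was -0.03. *Plat* (tissue plasminogen activator, which through plasmin can cleave proBDNF), named after its values were seen, was at 0.23 in WT DT(-), 0.18 in WT DT(+), 0.17 in OHC-TRECK DT(-) and 0.98 in OHC-TRECK DT(+). It was the gene of this list past 1.5-fold in all 3 comparisons of the ablated group, by 1.68-fold to 1.75-fold. The background at 1.5-fold in either direction was 8.46%, 8.35% and 10.4% of the probes there, so this count does not set the list apart from the array. Of the probes well above background on all arrays, 1.56% were at least 1.5-fold above all 3 other arrays in OHC-TRECK DT(+).

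Of 22 genes known to be induced by neurotrophins or GDNF, 19 were measured in OHC-TRECK DT(+) against OHC-TRECK DT(-), of which 2 were higher by 2-fold or more and 0 were lower. Among all probes these shares were 2.49% and 1.35%. The list's median was 0.03, and it was -0.01 when dim signals were used as measured. The 2 genes were *Vgf* (a secreted neuropeptide precursor), 18.3-fold higher, and *Fos* (an immediate early transcription factor), 3.31-fold higher. The list was drawn up with earlier results of these data known, and the authors report *Vgf* as their most strongly raised gene. Against WT DT(+) the same 2 genes were higher, by 8.75-fold and 3.25-fold, and against WT DT(-) by 11.0-fold and 3.29-fold. *Spry4* (an inhibitor of receptor tyrosine kinase signalling) was 4.09-fold higher in WT DT(+) than in WT DT(-), and 3.79-fold lower in OHC-TRECK DT(+) than in WT DT(+), so the one DT-treated wild-type array stood apart for it. All of these genes respond to many other signals too, and their link to the members was not tested.

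Of 15 other factors that support spiral ganglion neurons and their receptors, 13 were measured, and 0 reached 2-fold in any comparison. Their median was -0.05 in OHC-TRECK DT(+) against OHC-TRECK DT(-).

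**Figure D5:**
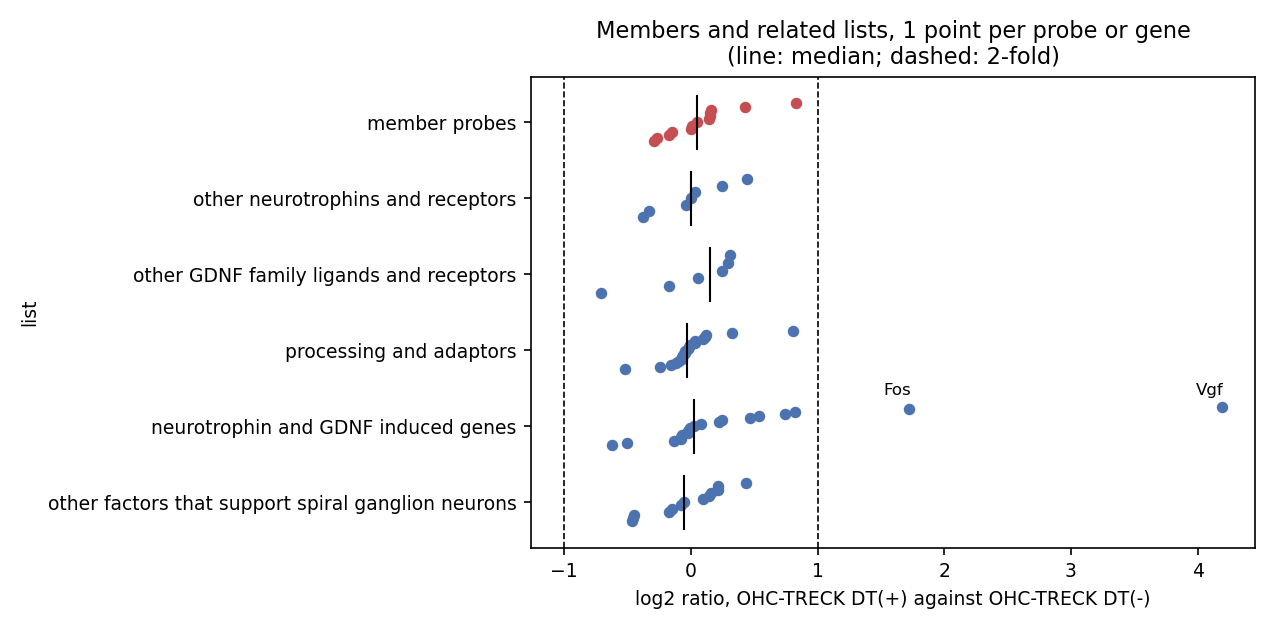
Log2 ratio in OHC-TRECK DT(+) against OHC-TRECK DT(-) (horizontal axis) of the 13 member probes and of the genes of the 5 lists (vertical axis), with a line at each median and dashed lines at 2-fold. The points past 2-fold are *Vgf* and *Fos*.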

How the data were processed

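Total RNA from cochleae was labelled with Cy3 by the authors and hybridised to 1 Agilent mouse array per group. The authors deposited the scanner output of Agilent Feature Extraction 11.5.1.1, in which the intensity of each spot is linear, background-subtracted and not scaled between arrays. A table of scaled intensity values was also deposited by the authors. It holds the same values divided by 1 constant per array, which was 100% to 100.045% of the 75th percentile of the non-control spots. It was used as an alternative.

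The 1377 control spots and 149 to 228 outlier spots per array were left out, repeated spots were averaged, and values were divided by the array's 75th percentile and logged to base 2, following the percentile shift in the methods. A probe entered a comparison when well above background (for more than 0.5 of its spots) on at least 1 of the 2 arrays. A dim side was raised to the lowest level that passed this flag on the same array, which makes the fold a lower bound. Where that floor lay above the bright side, no ratio was given (1 to 2007 probes per comparison). Lists used 1 probe per gene, chosen by its mean level over the arrays (highest). The SD of spots was taken over probes with at least 5 spots within 0.5 of the level.

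No statistical test was possible between groups of 1 array. Members, the 5 lists of 77 genes, the 11 marker lists of 82 genes and the comparisons were chosen with earlier results of these data known. Named genes were all members, list genes past 2-fold (at most 6 per list), *Ntf5*, *Sort1*, *Vgf* and a few defining markers, and the 3 genes most like a member whose levels spanned 1.5-fold or more. Of the genes that this rule allows, markers of other cell types were given mostly by their counts, and some are not reported here. All 8 members matched the RefSeq gene table by symbol, and its coordinates, which are of another build, were not used. On simulated arrays of 39429 probes, 200 of 200 changed probes and 0 unchanged ones were called. The changes put in were larger than 2-fold, and no probe as dim as *Ret* was changed. The noise put in was smaller than the spread between the real arrays. This checks only that the calling works as written, and not what it detects in these data. The software was R 4.3.3 with limma 3.58.1, and Python 3.11.15 with pandas 2.3.3, numpy 2.4.6 and matplotlib 3.10.9.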

Additional observations from a re-analysis of the deposited data

Results flagged for a closer look

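The 3′ end probe of truncated *Ntrk3* had log2 ratios of opposite sign after DT in the genotypes, 0.15 in OHC-TRECK mice and -0.31 in wild type. The first of these is within 2 SDs of a difference between single spots, each genotype has 1 array per treatment, and the difference was not tested. The other probe of the same transcript was lower after DT in both genotypes, with log2 ratios of -0.15 and -0.27.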

How the results depend on the processing

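No paired analysis was possible because each group has 1 array. The count of member probes at 2-fold was 0 in all 5 comparisons after normexp correction (limma, offset 50) and after median scaling or quantile normalization. It was also 0 with the deposited scaled table. Leaving out the floor, both detection filters and taking 1 probe per gene gave 0 too, but could not have raised the count. All 13 probes were well above background on each of the 4 arrays, and 1 probe per gene draws on the same probes. At 1.5-fold it was 1 in OHC-TRECK DT(+) against OHC-TRECK DT(-) and 1 against WT DT(+), the *Ret* probe in both, and 0 in the others. Under normexp the *Ret* ratio against WT DT(+) was 0.53 in place of 0.72, below 1.5-fold. For the lists and the *Ntrk2* quotient the alternatives were chosen after seeing the data. The median of the induced genes, 0.03, ranged from -0.0089 without a floor to 0.0463 under normexp. The shift of full-length over truncated *Ntrk2* stayed between -0.49 and -0.46. Of 455 recomputed ratios, 20 moved by more than the SD of spots, 16 of them under median scaling, and 8 changed sign, with sizes of at most 0.0139 before the change. The 455 include 65 ratios each for no floor and for each detection filter, which could not move for these probes. All moves and sign changes fell under normexp, median scaling, quantile normalization or the deposited table. Under all 5 scalings and corrections OHC-TRECK DT(+) was highest for *Ret*, *Gdnf*, *Gfra1* and the shared and truncated *Ntrk2* probes, and lowest for *Ntf3*, full-length *Ntrk2*, the *Ntrk3* kinase probe and the truncated *Ntrk3* probe at the end of the coding sequence. *Bdnf* was highest there under 1 of the 5. Single arrays, single spots for most probes and the low intensity of *Ret* limit these values.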
